A study of Mus musculus with 12 samples.

Results

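The transcripts described here encode protein kinase C (PKC) isoforms and their closest relatives, chosen by gene symbol: Prkca, Prkcb, Prkcd, Prkce, Prkch, Prkci, Prkd2, Prkd3 and Pkn2. They are 9 of the 12339 genes in the authors' count table, all 9 were found there, and all 9 passed the filter on low counts. RNA was sequenced from mouse macrophages drawn into the peritoneum with sterile thioglycolate and collected by lavage. There were 12 libraries in 4 groups of 3: wild type (WT) on chow, WT on a high-fat diet (HFD), meKO on chow and meKO on HFD. The series title names myeloid PKC epsilon, the product of Prkce, so meKO is read as the myeloid knockout of Prkce. The labels name neither the Cre line nor the deleted exons. All 4 groups, controls included, had received AAV8PCSK9 at 8 weeks of age, a viral vector that removes the LDL receptor from hepatocytes, and cells were collected 4 weeks later. The labels describe 8 injected animals per genotype, 4 of them on HFD, and do not say whether each library is a separate animal, so p-values measure the spread between these libraries.

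PKCs are serine/threonine kinases of the AGC class that are primed by phosphorylation, folded with the help of HSP90 and then switched on at membranes. The conventional isoforms (alpha and beta here) need calcium and diacylglycerol. The calcium-independent isoforms (delta, epsilon and eta) need diacylglycerol alone, and the atypical isoform iota needs neither and works in polarity complexes with Par6 and Cdc42. Protein kinase D enzymes (Prkd2, Prkd3) also bind diacylglycerol and are themselves activated by PKC, while Pkn2 is a relative controlled by small GTPases. In macrophages these kinases are known for roles in the oxidative burst, phagocytosis, Toll-like receptor signalling and responses to phorbol ester.

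Library depth ran from 25844958 to 37282772 counts over the listed genes. The length tilt of each library, given as Spearman's rho across genes between exon length and the library's departure from the 12-library mean, was 0.617 and 0.658 in WT chow replicates 1 and 2. It was between -0.45 and 0.14 in the other 10 libraries, WT chow replicate 3 included. These 2 libraries were therefore rich in long transcripts, and the values discussed at length that rest on WT chow are also given without them. That fit leaves replicate 3 as the only WT chow library. With so few libraries, a call lost in it or a high adjusted p does not tell whether the length tilt made a difference. It is among the alternatives whose ranges are given. CPM is the count scaled to library size, here with edgeR's TMM factors. Of 10 macrophage markers all 10 were measured. Their sum ran from 36970 to 60150 CPM in WT and from 6535 to 28090 CPM in meKO, so every meKO library lay below every WT library. Most of that sum is Lyz2, a myeloid lysozyme gene, which stood at 69.3 CPM in meKO chow replicate 2 and at 16290 to 53840 CPM in the other 11 libraries. The other 9 markers summed to between 5829 and 7071 CPM in every library. The part of the Lyz2 difference in the genotype values below was not tested.

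Prkd2, Prkca and Prkci were the kinases that fell on HFD when genotypes were averaged, and the sequences upstream of these 3 genes are shown so that their promoters can be compared. Of the 9, 7 matched an entry of the RefSeq promoter table (GRCm38.p6). Prkce and Prkch had no entry, and Prkd2 had 2, of which the first is shown. The windows end at the base before the annotated gene. Capitals mark the GC box (GGGCGG, either strand) and, in Prkd2, the core of a PU.1 site (GAGGAA, either strand). Prkd2 is shown at chr7:16842652-16842901 on the plus strand, Prkca at chr11:108343929-108344138 on the minus strand and Prkci at chr3:30995521-30995746 on the plus strand, each written 5′ to 3′.
Prkd2: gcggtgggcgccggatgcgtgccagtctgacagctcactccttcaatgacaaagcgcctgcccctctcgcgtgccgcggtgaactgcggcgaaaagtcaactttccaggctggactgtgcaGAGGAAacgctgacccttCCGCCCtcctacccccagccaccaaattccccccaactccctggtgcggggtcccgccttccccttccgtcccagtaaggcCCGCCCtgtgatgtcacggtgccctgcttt
Prkca: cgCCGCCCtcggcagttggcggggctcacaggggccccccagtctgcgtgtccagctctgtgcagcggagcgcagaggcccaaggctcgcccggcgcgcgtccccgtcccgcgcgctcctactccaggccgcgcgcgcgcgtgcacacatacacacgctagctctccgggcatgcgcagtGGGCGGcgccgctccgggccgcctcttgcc
Prkci: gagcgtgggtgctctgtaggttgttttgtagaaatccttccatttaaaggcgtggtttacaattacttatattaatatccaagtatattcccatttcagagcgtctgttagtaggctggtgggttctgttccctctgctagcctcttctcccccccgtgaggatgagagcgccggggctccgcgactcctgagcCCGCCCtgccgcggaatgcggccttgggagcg
The stretches shown are 250 bases for Prkd2, 210 for Prkca and 226 for Prkci. Prkd2 and Prkca each held 2 GC boxes and Prkci held 1. Matches in the other kinases with an entry are not given, so a GC box cannot be read as particular to these 3. Among 32851 RefSeq windows of 250 bases, 32.7% held a GC box and 23.3% held the PU.1 core. Searches on both strands for the TATA box (TATAAA, in 12.4% of windows), an AP-1 site (TGANTCA, 6.75%), an E-box (CACGTG, 6.02%), a cyclic AMP response element (TGACGTCA, 1.55%) and a sterol response element (TCACNCCAC, 1.05%) found no match in these 3 windows. A match describes the letters and not a bound site.

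The kinases differed widely in abundance, with Prkcd far above the rest. Levels between genes are compared as CPM per kilobase (kb) of exon, from the GENCODE M21 annotation of the same build. Prkcd, the delta isoform, averaged 103 ± 6.63 CPM per kb (SD, n = 12 libraries) and ran from 89.8 to 112. Prkch (eta) followed at 16.6 ± 1.83, Prkcb (beta) at 11.4 ± 3.25 and Prkd3 at 9.82 ± 1.45 CPM per kb. Pkn2 averaged 6.41 ± 0.795 and Prkci (iota) 5.22 ± 0.678 CPM per kb. Prkd2 was lower at 1.21 ± 0.317 CPM per kb. Prkce (epsilon) at 0.356 ± 0.185 and Prkca (alpha) at 0.310 ± 0.0761 CPM per kb were the lowest of the 9. In that order, the ranges over the 12 libraries did not overlap between Prkcd and Prkch, Prkd3 and Pkn2, Prkci and Prkd2, or Prkd2 and Prkce. The ranges of the other 4 neighbouring pairs overlapped. Relatives outside the 9 lay within the same span: Prkcq (theta) averaged 0.490 and Pkn3 0.437 CPM per kb.

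**Figure D1:**
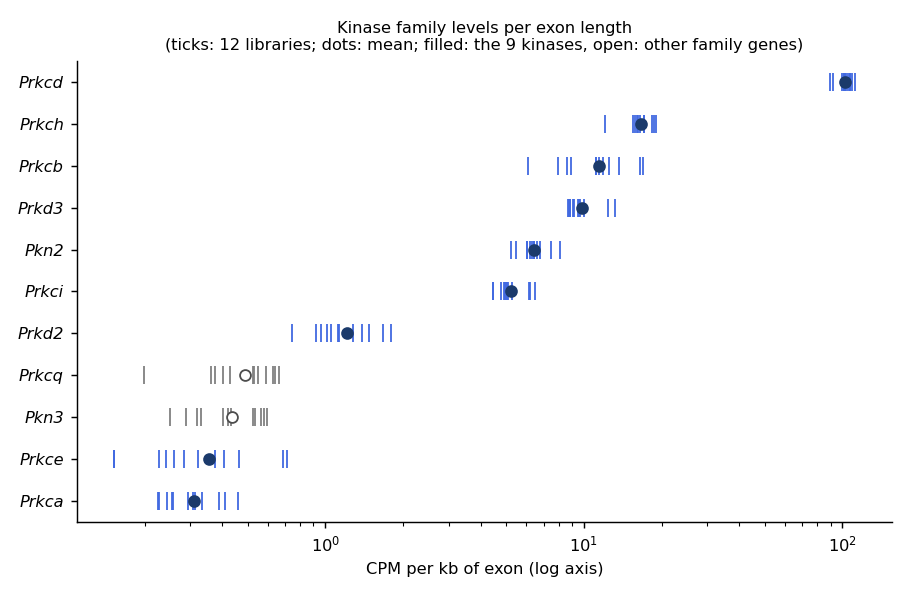
Level of each kinase transcript as CPM per kb of exon on a log axis; each tick is 1 of the 12 libraries and each dot the mean, filled for the 9 kinases and open for 2 other family genes. Prkcd, at a mean of 103, stands above every other gene, and Prkce and Prkca, at 0.356 and 0.310, are the lowest of the 9.

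Within the summed per-kb level of the 6 PKC isoforms, Prkcd made up 72.0% ± 2.04 in WT chow, 74.7% ± 1.08 in WT HFD, 77.0% ± 0.968 in meKO chow and 77.2% ± 1.35 in meKO HFD (SD, n = 3 each). Prkce made up 0.405% ± 0.117 of that sum in WT chow and 0.155% ± 0.0441 in meKO chow. The gene named in the series title was therefore under 1% of the PKC transcript level in these libraries. The summed level of the other 5 isoforms was 144 ± 5.30 CPM per kb in WT chow, 132 ± 7.59 in WT HFD, 138 ± 4.35 in meKO chow and 131 ± 12.3 in meKO HFD. These sums were not tested.

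Prkce was lower in meKO than in WT, and it was not absent. Prkce lies on chromosome 17 at 86167785 to 86657919, plus strand. In WT chow it stood at 4.27, 4.44 and 2.35 CPM, and in WT HFD at 2.01, 2.89 and 2.53 CPM. In meKO chow it stood at 1.42, 0.950 and 1.62 CPM, and in meKO HFD at 1.78, 0.954 and 1.51 CPM. The highest meKO library was below the lowest WT library, while WT chow replicate 3 lay within the WT HFD range. With diets pooled, the 6 WT libraries averaged 3.08 ± 1.03 CPM (SD), and the 6 meKO libraries averaged 1.37 ± 0.347 CPM (SD), which is 44.6% of WT. An exact two-sided permutation test of the 924 splits gave p = 0.00216, the smallest it can give. Without WT chow replicates 1 and 2 the log2 ratio moved from -1.17 to -0.83, with an exact permutation p of 0.00476. Without meKO chow replicate 2, the library with 69.3 CPM of Lyz2, it was -1.08 (p = 0.00433 by the same exact test). While the genotypes do not overlap this p stays at or near its smallest possible value, so it does not register such shifts. The raw counts behind these values ran from 25 to 151. They cover the whole gene, so the table does not show which exons the remaining meKO reads came from. The lavage can also hold cells outside the myeloid lineage, and in bulk RNA fewer cells of a type and less RNA per cell cannot be told apart.

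Prkce did not pass the test across all genes, in which p-values are adjusted over 12339 genes. Its log2 fold change by edgeR's quasi-likelihood test, meKO minus WT, was -1.47 ± 0.31 on chow (SE, adjusted p = 0.0794) and -0.80 ± 0.31 on HFD (adjusted p = 0.989). Averaged over diets it was -1.13 ± 0.22 (adjusted p = 0.0588). DESeq2, the tool named in the submitters' processing notes, called it on chow (adjusted p = 0.00167) and on the average (adjusted p = 0.000373). Without WT chow replicates 1 and 2 the log2 fold change was -0.82 on chow, and without meKO chow replicate 2 it was -1.27 (edgeR adjusted p = 0.289). Over all alternatives the adjusted p on chow ran from 0.00167 to 1, and that on the average from 0.000373 to 0.644.

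**Figure D2:**
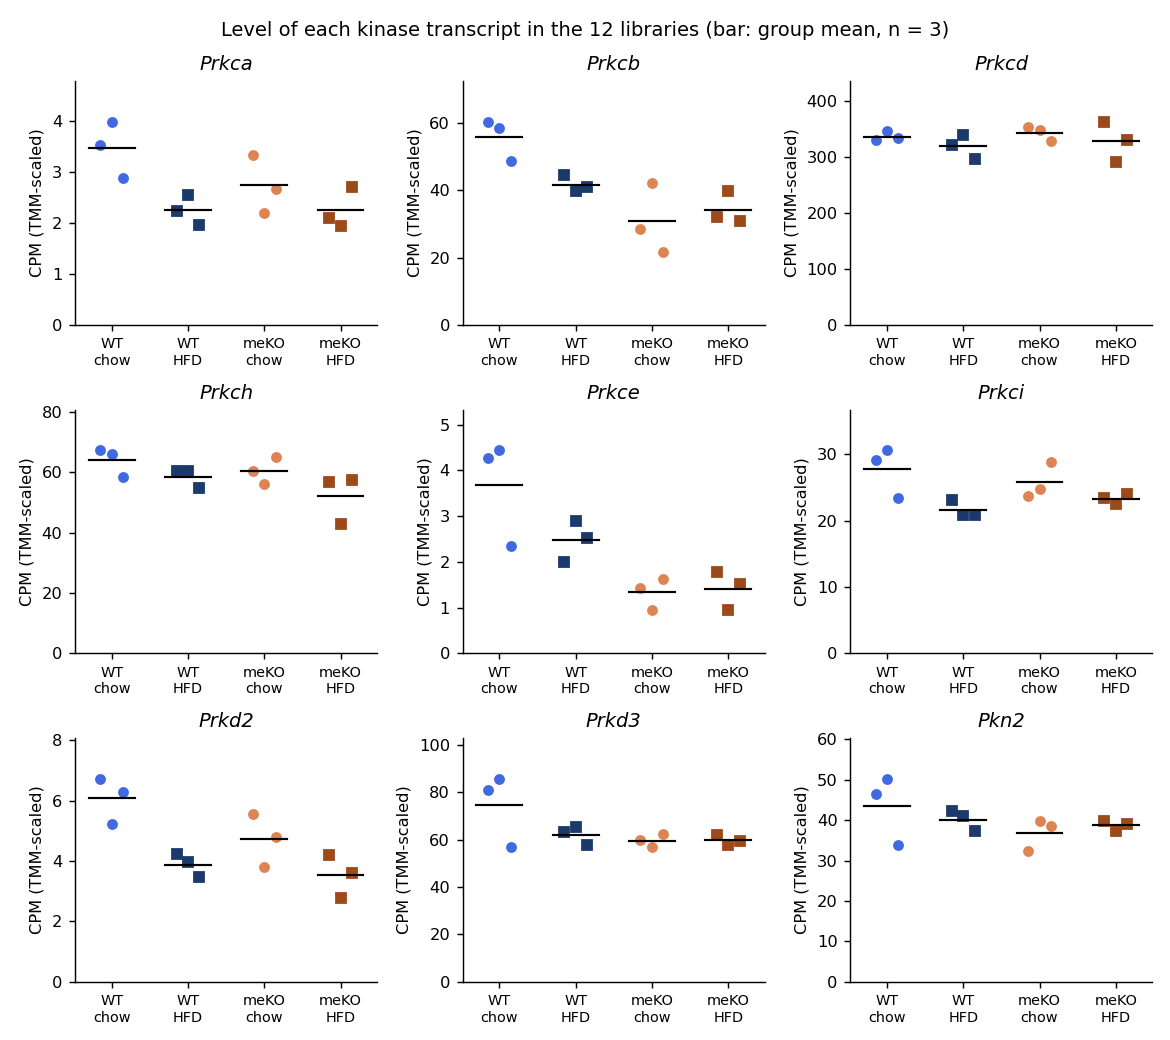
TMM-scaled CPM (linear axes from 0) of the 9 kinases in each library of the 4 groups; points are libraries and bars are group means (n = 3). The Prkce panel shows every meKO library, at most 1.78 CPM, below every WT library, at least 2.01 CPM, and Prkd2, Prkca, Prkci and Prkcb show no overlap between WT chow and WT HFD.

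By edgeR, no kinase of the 9 passed the adjusted threshold of 0.05 in any genotype comparison, so none is called higher in meKO. DESeq2 called 2 on chow and on the average (Prkce and Prkcb, both lower in meKO) and 0 on HFD. Over all genes, edgeR called 0.081% on chow, 0.081% on HFD and 0.17% with genotype averaged over diets. DESeq2 called 5.05% of the genes it tested on chow, 0.43% on HFD and 3.03% on the average. At an unadjusted p under 0.05 by edgeR there were 3 members on chow (Prkce, Prkcb and Prkd3) and 1 on HFD (Prkce). There were 2 on the average (Prkce and Prkcb). Of all 12339 genes, 2447 were under it on chow, 563 on HFD and 2183 on the average. The median log2 fold change of the 9 on chow was -0.32, beside -0.0012 over all genes, and on HFD it was -0.056, beside 0.015. With exon length and GC content corrected in each library, the chow median of the 9 was 0.0012, and without WT chow replicates 1 and 2 it was 0.044. Groups did not overlap in 2 of the 9 on chow (Prkce and Prkcb; 17.1% of all genes), in 1 on HFD (Prkce; 10.3%) and in 1 when 6 libraries were set against 6 (Prkce; 0.421%).

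For the other 7 kinases the intervals averaged over diets, with all 12 libraries, give a range for meKO relative to WT on that average. The most abundant, Prkcd, in meKO relative to WT averaged over diets, had a fold of between 0.92 and 1.14 (95% interval). The interval for Prkch ran from 0.807 to 1.05 and that for Prkci from 0.878 to 1.14. Pkn2 ran from 0.781 to 1.05, Prkd3 from 0.762 to 1.01, Prkd2 from 0.683 to 1.04 and Prkca from 0.701 to 1.13. Each of these 7 intervals for the average includes 1, and with all 12 libraries none reaches above 1.14. Without WT chow replicates 1 and 2 the log2 fold changes on the average were 0.040 for Prkcd, -0.057 for Prkch, 0.12 for Prkci and -0.27 for Prkd2. For Prkca, Prkd3 and Pkn2 they were -0.038, 0.0011 and 0.035, where all 12 libraries gave -0.17, -0.19 and -0.15. The bound of 1.14 is therefore not given for that fit. Within a diet the intervals were wider: on HFD the upper bound was 1.41 for Prkca, 1.29 for Prkci and 1.23 for Prkd2. On chow the interval of Prkd3, 0.655 to 0.975, lay below 1 before adjustment over genes.

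Prkcb, the calcium-dependent beta isoform, had the largest genotype difference after Prkce. The gene lies on chromosome 7 at 122288751 to 122634402, plus strand. It stood at 60.4, 58.6 and 48.8 CPM in WT chow and at 28.4, 42.2 and 21.8 CPM in meKO chow, so these groups did not overlap. On HFD it stood at 44.6, 39.7 and 40.9 CPM in WT and at 31.9, 39.9 and 30.9 CPM in meKO, where a meKO library lay just above the lowest WT library. The log2 fold change was -0.86 ± 0.19 on chow (edgeR adjusted p = 0.0796) and -0.57 ± 0.14 averaged over diets (adjusted p = 0.116). DESeq2 called it on chow (adjusted p = 0.00423) and on the average (adjusted p = 0.0106). On chow, the adjusted p over all alternatives ran from 0.00316 to 1. The log2 fold change on chow was -0.66 without WT chow replicates 1 and 2, and -1.15 (edgeR adjusted p = 0.0413) without meKO chow replicate 2. As a share of the 6-isoform sum, Prkcb went from 10.8% ± 0.920 in WT chow to 6.22% ± 1.96 in meKO chow.

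Prkcb is also highly expressed in B cells, so B cell markers are given beside it. Of 9 markers 8 were measured, and their summed level was 257, 204 and 260 CPM in WT chow and 261, 144 and 247 CPM in meKO chow. In the same order, Prkcb stood at 60.4, 58.6 and 48.8 CPM in WT chow and at 28.4, 42.2 and 21.8 CPM in meKO chow. Replicate 2 of meKO chow is also the library with 69.3 CPM of Lyz2. Neutrophil markers (5 of 10 measured) summed to between 17.4 and 25.8 CPM in WT chow and between 31.1 and 50.8 CPM in meKO chow. On HFD the neutrophil sum was 23.4 to 24.8 CPM in WT and 28.2 to 52.0 CPM in meKO. The part of these cells in the genotype values was not tested.

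The chow values of Prkd3, Pkn2 and Prkca, with 6.51, 6.21 and 8.64 kb of exon, moved with the length tilt of the WT chow libraries. Prkd3, a diacylglycerol-responsive protein kinase D, lies on chromosome 17 at 78949405 to 79020816, 7.15 Mb from Prkce. It stood at 80.8, 85.7 and 57.0 CPM in WT chow and at 59.7, 56.7 and 62.2 CPM in meKO chow. WT chow replicates 1 and 2 lay above every other library, and replicate 3 lay within the meKO chow range. Its log2 fold change on chow was -0.32 ± 0.13 (edgeR adjusted p = 0.208), and it was -0.043 after the length and GC correction and 0.062 without those 2 libraries. Pkn2, on chromosome 3, stood at 46.4, 50.3 and 33.8 CPM in WT chow and at 32.3, 39.7 and 38.6 CPM in meKO chow. Its log2 fold change on chow was -0.24 ± 0.14 (edgeR adjusted p = 0.34), 0.0012 after the correction and 0.12 without WT chow replicates 1 and 2. For Prkca it was -0.34 ± 0.22 (edgeR adjusted p = 0.384), 0.029 after the correction and -0.073 without those libraries. Prkce, with 6.25 kb of exon, went from -1.47 to -1.15 after the correction and to -0.82 without those libraries.

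**Figure D3:**
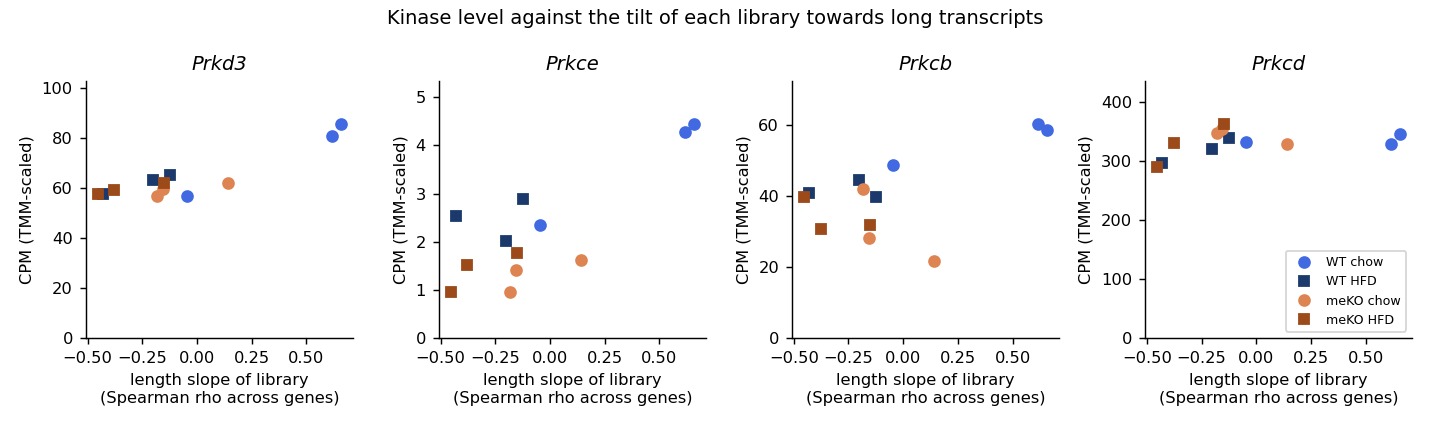
TMM-scaled CPM of Prkd3, Prkce, Prkcb and Prkcd in each library against the library's length tilt (Spearman's rho across genes); colours and shapes mark the 4 groups. The WT chow libraries at 0.617 and 0.658 hold the 2 highest levels of Prkd3, Prkce and Prkcb, whereas Prkcd, between 290 and 363 CPM, shows no such step.

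The diet comparison in WT sets HFD against chow, with AAV8PCSK9 given to both. Prkd2 fell past the threshold. With all 12 libraries the 9 had negative log2 fold changes, HFD minus chow, but 4 were positive with the length and GC correction (Prkcd 0.048, Prkch 0.041, Prkd3 0.011 and Pkn2 0.10). Without WT chow replicates 1 and 2, Prkce (0.076), Prkch (0.0056), Prkd3 (0.12) and Pkn2 (0.25) were positive. The median of the 9 was -0.36, beside -0.035 over all genes. This comparison called 21.3% of all genes, so 1 of 9 is no more than that share. WT chow and WT HFD did not overlap in 4 of the 9 (Prkca, Prkcb, Prkci and Prkd2), where 39.3% of all genes did not overlap. This comparison and the chow genotype comparison share the 3 WT chow libraries. With the length and GC correction the median was -0.18 and 0 of the 9 were called, beside 13.0% of all genes. The median was -0.062 without WT chow replicates 1 and 2.

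Prkd2, a protein kinase D activated downstream of diacylglycerol and PKC, lies on chromosome 7 at 16842902 to 16870464, plus strand. It stood at 6.73, 5.23 and 6.28 CPM in WT chow and at 4.24, 3.96 and 3.46 CPM in WT HFD, without overlap. In meKO it stood at 5.56, 3.80 and 4.80 CPM on chow and at 4.21, 2.78 and 3.61 CPM on HFD, where the groups overlapped. The log2 fold change in WT was -0.65 ± 0.20 (edgeR adjusted p = 0.0361). It passed in 15 of 23 alternatives, whose adjusted p ran from 0.00551 to 0.451. The call was lost without WT chow replicate 1 (adjusted p = 0.159) or 2 (0.0764), without WT HFD replicate 1 (0.0711), 2 (0.0739) or 3 (0.151), and without meKO HFD replicate 3 (0.0514). It was also lost with the length and GC correction, at -0.39 (edgeR adjusted p = 0.122). The last loss was in the fit with replicate 3 as the only WT chow library, where the value did not shrink, at -0.69. In meKO the log2 fold change was -0.41 ± 0.20 (edgeR adjusted p = 0.33).

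Prkca, Prkci and Prkcb had groups that did not overlap in WT but missed the adjusted threshold. Prkca, the alpha isoform, stood at 3.54, 3.98 and 2.88 CPM in WT chow and at 2.23, 2.55 and 1.96 CPM in WT HFD. Its log2 fold change was -0.63 ± 0.22 (edgeR adjusted p = 0.0587), -0.27 after the length and GC correction and -0.36 without WT chow replicates 1 and 2. Prkci, the polarity kinase, stood at 29.1, 30.6 and 23.4 CPM in WT chow and at 23.1, 20.9 and 20.9 CPM in WT HFD. Its log2 fold change was -0.36 ± 0.12 (edgeR adjusted p = 0.0524), and -0.11 without those 2 libraries. For Prkcb it was -0.42 ± 0.19 (edgeR adjusted p = 0.119), for Prkce -0.58 ± 0.30 (adjusted p = 0.165) and for Prkd3 -0.26 ± 0.13 (adjusted p = 0.157). Prkcd, Prkch and Pkn2 lay between -0.13 and -0.076, each with a 95% interval that includes 0.

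In meKO, diet moved none of the 9 past the threshold and no pair of groups was free of overlap. Over all genes, 0.105% were called and 19.7% did not overlap. None of the 9 had an unadjusted p under 0.05 by edgeR, beside 1962 of all 12339 genes. DESeq2 called 0 of the 9, beside 1.87% of the genes it tested. The median log2 fold change of the 9 was -0.066, beside -0.0057 over all genes, and single values ran from -0.41 (Prkd2) to 0.15 (Prkcb). In meKO, Prkca was at 3.34, 2.20 and 2.66 CPM on chow and at 2.10, 1.95 and 2.70 CPM on HFD. Prkci was at 23.7, 24.7 and 28.8 CPM on chow and at 23.3, 22.5 and 23.9 CPM on HFD.

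The larger diet differences in WT than in meKO were not shown to differ between genotypes. The genotype by diet interaction called none of the 9 by edgeR, and 0.0162% of all genes. At an unadjusted p under 0.05 it also held none of the 9, beside 756 of all 12339 genes. DESeq2 called 0 of the 9 and 0.122% of all genes. Of the 9, 8 had a positive interaction with all 12 libraries, with a median of 0.24, beside 0.023 over all genes. With the length and GC correction 6 were positive and the median was 0.051. Leaving out WT chow replicates 1 and 2 gave a median of -0.0070 and 4 positive values, with Prkci at -0.035, Prkd3 at -0.12 and Pkn2 at -0.18. The value closest to the threshold was that of Prkcb, 0.57 ± 0.27 (unadjusted p = 0.0541, edgeR adjusted p = 0.797). For Prkce the interaction was 0.68 ± 0.44 (edgeR adjusted p = 0.812), and 0.021 without those 2 libraries.

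**Figure D4:**
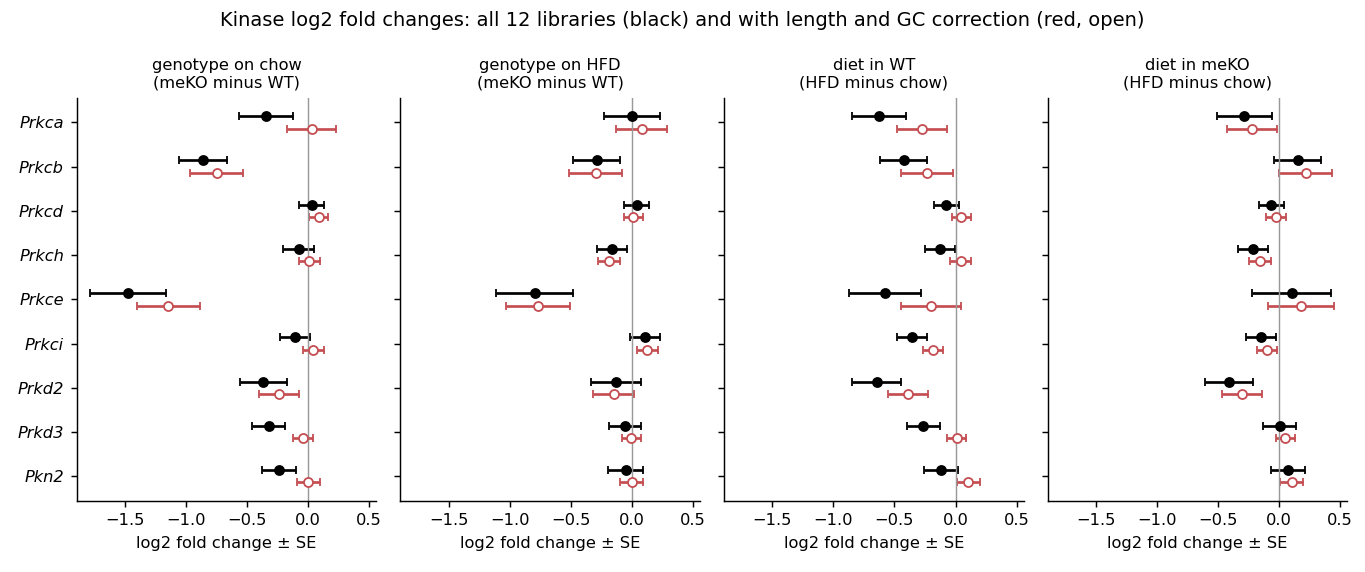
Log2 fold changes of the 9 kinases with their SE in 4 comparisons, from all 12 libraries (black) and with a length and GC correction (red, open). Prkce and Prkcb keep negative values on chow under the correction (-1.15 and -0.75), while Prkd3, Pkn2 and Prkca move to about 0 (-0.043, 0.0012 and 0.029). In the diet comparison in WT all 9 black points lie below 0, where 4 red points (Prkcd, Prkch, Prkd3 and Pkn2) lie above it.

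Averaged over genotypes, 3 kinases fell on HFD: Prkd2, Prkci and Prkca. This comparison called 30.2% of all genes, so 3 of 9 is close to the share over all genes. Prkd2 fell by 0.53 ± 0.14 on the log2 scale (edgeR adjusted p = 0.0162), and passed in 21 of 22 alternatives. The exception was the fit without WT chow replicates 1 and 2 (-0.55), which leaves replicate 3 as the only WT chow library. Prkci fell by 0.25 ± 0.087 (edgeR adjusted p = 0.0426) and passed in 9 of 22 alternatives, with adjusted p from 0.00506 to 0.395. Prkca fell by 0.46 ± 0.16 (edgeR adjusted p = 0.0446) and passed in 12 of 22, with adjusted p from 0.0217 to 0.337. With the length and GC correction Prkd2 was -0.35 (edgeR adjusted p = 0.0473), Prkci -0.14 (adjusted p = 0.102) and Prkca -0.25 (adjusted p = 0.227). With WT chow replicates 1 and 2 left out, Prkci was -0.13 and Prkca -0.32. Among the other 6, Prkcd was at -0.071 ± 0.072 (edgeR adjusted p = 0.47) and Prkch at -0.17 ± 0.088 (adjusted p = 0.152).

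Cell markers moved with diet too. B cell markers summed to 204 to 260 CPM in WT chow and 118 to 145 CPM in WT HFD, and to 144 to 261 CPM in meKO chow and 134 to 222 CPM in meKO HFD. Dendritic cell markers (6 of 6 measured) summed to 31.3 to 46.7 CPM in WT chow and 15.9 to 24.3 CPM in WT HFD, without overlap. In meKO they summed to 22.1 to 43.9 CPM on chow and 23.4 to 35.8 CPM on HFD, with overlap. Mesothelium and fibroblast markers (8 of 8 measured) summed to 42.8 to 71.4 CPM in WT chow and 74.5 to 116 CPM in WT HFD. In meKO they summed to 43.6 to 77.7 CPM on chow and 89.7 to 116 CPM on HFD, so in both genotypes every HFD library lay above every chow library. Of the 8, Dcn and Krt19 rose on HFD in WT, and Dcn, Krt19 and Wt1 rose with genotypes averaged. Their part in the diet values of the kinases was not tested.

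Across the 12 libraries the kinases paired up as follows, by Pearson's r of log2 CPM, with Spearman's rho beside it, given as a description because the points share libraries, groups and the length tilt. Prkd3 and Pkn2 were closest, at r = 0.846 (rho 0.741). Prkce was closest to Prkd3 (r 0.799, rho 0.65), Prkca to Prkd2 (r 0.795, rho 0.811) and Prkch to Prkd2 (r 0.775, rho 0.811). For Prkci and Prkd3 r was 0.71 but rho 0.28, and for Prkcd and Prkch r was 0.575 but rho 0.126, so these pairs were not alike by rank. Prkcb had its highest r with Prkce (0.586, rho 0.559). Among all genes that averaged 1 CPM or more, those most like Prkce were Fosl2 (r 0.922, rho 0.93), an AP-1 subunit, Swap70 (r 0.912, rho 0.839), which acts on Rac and the actin cytoskeleton, and Sass6 (r 0.906, rho 0.93), a centriole protein.

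Of the wider pathway, more genes were called for diet in WT than for genotype, and over all genes diet in WT called 21.3% against 0.081% for genotype on chow. Without WT chow replicates 1 and 2 only replicate 3 stands for WT chow, so that fit is given below as log2 fold changes and medians. Of the 12 kinases, chaperones and phosphatases that prime PKC or end its activity, 2 rose and 1 fell on HFD in WT, which is near the 21.3% called over all genes. Hsp90aa1, the inducible HSP90 chaperone, rose by 0.63 ± 0.16 (log2, edgeR adjusted p = 0.0217). Mtor, the kinase of the complex that primes PKC, fell by 0.60 ± 0.16 (edgeR adjusted p = 0.0255). With the length and GC correction Mtor was -0.11 (edgeR adjusted p = 0.402) and Hsp90aa1 0.64 (adjusted p = 0.0172). Without WT chow replicates 1 and 2 they were -0.14 and 0.55. With the correction 4 of the 12 rose and 0 fell, beside 13.0% of all genes called. The median of the 12 was -0.10, and it was 0.073 with the length and GC correction and 0.14 without WT chow replicates 1 and 2. None was called for genotype on either diet.

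Among anchoring proteins, 5 of 7 symbols were measured and 1 fell on HFD in WT, beside 21.3% of all genes called. It was Akap13, a scaffold for signalling kinases, which fell by 0.85 ± 0.19 (edgeR adjusted p = 0.0162). Akap13 was -0.37 with the length and GC correction (edgeR adjusted p = 0.0308) and -0.26 without WT chow replicates 1 and 2. Rack1, a receptor for activated PKC and a ribosomal protein, rose with diet averaged over genotypes by 0.34 ± 0.11 (edgeR adjusted p = 0.0375). Rack1 was 0.12 with the correction (edgeR adjusted p = 0.201) and 0.16 without those libraries. Of the partners of the atypical isoforms and of Pkn2, 9 of 13 were measured and 3 rose in WT: Rhoc by 0.88 ± 0.16 (edgeR adjusted p = 0.00853), Rhoa by 0.40 ± 0.10 (adjusted p = 0.0224) and Cdc42 by 0.32 ± 0.11 (adjusted p = 0.0491). These are small GTPases that activate PKN or bind the Par6 complex, and no partner fell. With the correction Rhoc was 0.69 (edgeR adjusted p = 0.0103), Cdc42 0.26 (adjusted p = 0.043) and Rhoa 0.20 (adjusted p = 0.264). Without WT chow replicates 1 and 2 Rhoc was 0.59, Cdc42 0.18 and Rhoa 0.34. Median log2 fold changes were -0.12 for the anchors and 0.13 for the partners, beside -0.035 over all genes, and 0.078 and 0.21 once length and GC were corrected. They were 0.096 and 0.18 without WT chow replicates 1 and 2.

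Of 21 substrates and effectors of PKC and PKD, 20 were measured. On HFD in WT 1 rose and 4 fell, and the share called is near the 21.3% over all genes. With the length and GC correction 1 rose and 2 fell, beside 13.0% of all genes called. The median was -0.14, and it was -0.0235 with that correction and -0.0225 without WT chow replicates 1 and 2. Marcks, the actin-binding PKC substrate, fell by 0.64 ± 0.15 (edgeR adjusted p = 0.0161). Ticam2, a Toll-like receptor adaptor phosphorylated by PKC epsilon, fell by 0.50 ± 0.13 (adjusted p = 0.0244). Cybb, the catalytic subunit of the phagocyte oxidase, fell by 0.45 ± 0.14 (edgeR adjusted p = 0.0357). With the correction Marcks was -0.52 (edgeR adjusted p = 0.0221), Ticam2 -0.36 (adjusted p = 0.0416) and Cybb -0.31 (adjusted p = 0.0791). Without WT chow replicates 1 and 2 they were -0.47, -0.31 and -0.23. Cttn, an actin-binding protein that PKD phosphorylates, rose by 0.72 ± 0.21 in WT (edgeR adjusted p = 0.0293) and by 1.57 ± 0.20 in meKO (adjusted p = 0.011). Cttn stood at 2.44, 2.06 and 1.66 CPM in meKO chow and at 4.97, 7.06 and 6.43 CPM in meKO HFD. No substrate was called for genotype.

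Of 8 other diacylglycerol receptors with a C1 domain, 7 were measured and 3 fell on HFD in WT, beside 21.3% of all genes called in either direction. They are Ras exchange factors: Rasgrp4 fell by 0.75 ± 0.17 (edgeR adjusted p = 0.0153), Rasgrp3 by 0.57 ± 0.18 (adjusted p = 0.0372) and Rasgrp1 by 0.80 ± 0.27 (adjusted p = 0.048). The median of the 7 was -0.57, and it was -0.39 with the length and GC correction and -0.35 without WT chow replicates 1 and 2. With the correction 0 of the 7 fell and 1 rose (Rasgrp2), beside 13.0% of all genes called. There Rasgrp4 was -0.42, Rasgrp3 -0.39 and Rasgrp1 -0.55. Rasgrp3 was also the 1 gene of the pathway lists called for genotype. It stood at 27.5, 30.4 and 28.3 CPM in WT chow and at 21.1, 17.6 and 19.2 CPM in WT HFD. In meKO it stood at 22.7, 14.2 and 16.7 CPM on chow and at 8.14, 12.2 and 11.6 CPM on HFD. On chow and on HFD alike, the highest meKO library was below the lowest WT library. Averaged over diets Rasgrp3 was lower in meKO by a log2 fold change of -0.77 ± 0.13 (edgeR adjusted p = 0.028). With the length and GC correction that value was -0.68 and the call was lost (edgeR adjusted p = 0.0582). Without WT chow replicates 1 and 2 it was -0.77.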

How the data were processed

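The deposited file holds unnormalized counts, 1 column for each library, indexed by Entrez identifier and gene symbol. Per the submitters' processing notes the build was mm10 and DESeq2 was used. The aligner, counting tool and strand setting are not given in the sources used here, so reads shared with paralogs or antisense genes cannot be separated. Trizol extraction and TruSeq library preparation are stated per the labels.

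Groups came from the sample titles, and replicate numbers only name libraries. Counts of all 12339 genes were fitted with edgeR 4.0.16 in R 4.3.3 (TMM, filterByExpr, robust quasi-likelihood F test, 4 group means, 12 libraries). Tests were two-sided, with Benjamini-Hochberg adjustment over all genes and a threshold of 0.05. Each SE is the size of the log2 fold change over the root of its F. For a check of the labels, Prkce was also compared by an exact permutation test of CPM. Replicates differed by more than sampling noise. Exon lengths, from GENCODE M21, were found for 97.65% of genes. The length and GC correction subtracts, in each library, natural splines with 5 degrees of freedom each. Scripts were tested on simulated counts. Alternatives were DESeq2 1.42.0, limma-voom 3.58.1 with and without quality weights, other scaling, filters and fits, the correction, and leaving out each library. Leaving out both WT chow libraries rich in long transcripts was chosen after seeing the data, and it leaves replicate 3 as the only WT chow library.

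The members and gene lists were chosen with earlier results of these data known. From each list the text names at most 4 called genes per comparison, in order of p. Some genes of these lists are counted but not reported here by name.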

Additional observations from a re-analysis of the deposited data

How the results depend on the processing

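Of the 9 kinases, the number called moved with the test used and with single libraries, and no called value changed sign under any alternative run. For genotype on chow (0 called), DESeq2 called 2 (5.05% of all genes it tested) and limma-voom with quality weights 4 (32.8%). Leaving out each library in turn gave 0 to 4, with 4 (Prkcb, Prkce, Prkd3 and Pkn2; 20.6% of all genes) without WT chow replicate 3 and 1 (Prkcb; 0.0324%) without meKO chow replicate 2. For genotype averaged over diets (0 called), DESeq2 called 2 (3.03% of all genes) and quality weights 4 (31.1%). Leaving out single libraries gave 0 to 3 there, with 3 (Prkcb, Prkce and Prkd3, beside 11.3%) without WT chow replicate 3. It gave 1 (Prkcb, beside 0.138%) without meKO chow replicate 2 and 1 (Prkce, beside 0.575%) without meKO HFD replicate 1. For diet in WT (1 called), scaling by library totals gave 3 (22.2% of all genes), DESeq2 3 (27.9%) and quality weights 6 (52.0%). This comparison gave 2 (20.7%) with the non-robust fit, 2 (16.7%) with only the libraries compared and 0 (13.0%) with the length and GC correction. For the same comparison, leaving out single libraries gave 0 to 5, with 5 (39.9%) without WT chow replicate 3. For diet averaged over genotypes (3 called), the length and GC correction left 1 (22.8% of all genes). Leaving out single libraries gave 1 to 4, with 15.9% to 43.2% of all genes called. The 4 came without WT chow replicate 3 (43.2%). No kinase was called under any alternative for genotype on HFD, diet in meKO or the interaction. The log2 ratio of Prkce over both diets ran from -1.26 to -0.83. Its exact permutation p, 0.00216 to 0.00476, is at or near the smallest possible while the genotypes do not overlap and so says nothing about how the ratio moved. The lowest counts limit Prkce, Prkca and Prkd2, at 25, 51 and 73 in their lowest library. No paired analysis was possible because the labels give no replicate numbers shared across groups.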

Other observations

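Other AGC kinases, the class to which PKC belongs, were measured for 24 of 27 symbols. On HFD in WT, 0 rose and 7 fell, beside 21.3% of all genes called in either direction, with a median log2 fold change of -0.28 beside -0.035 over all genes. The median was -0.015 with the length and GC correction and 0.0041 without WT chow replicates 1 and 2. Mast3, a microtubule-associated kinase, was at -0.84 ± 0.17 (edgeR adjusted p = 0.0127), Prkacb, a catalytic subunit of protein kinase A, at -0.49 ± 0.12 (adjusted p = 0.0202), Rps6ka3, a ribosomal S6 kinase, at -0.56 ± 0.14 (adjusted p = 0.0206) and Cdc42bpg, a Cdc42-binding kinase, at -0.98 ± 0.27 (adjusted p = 0.0276). With the correction 2 of the 24 rose and 1, Mast3, fell on HFD in WT, beside 13.0% of all genes called. None of the 24 was called for genotype on either diet or on the average, nor for diet in meKO. With diet averaged over genotypes Sgk1, a kinase induced by serum and glucocorticoids, rose by 0.37 ± 0.10 (edgeR adjusted p = 0.0188) and 7 fell. That is near the 30.2% called over all genes. With the correction 2 rose and 4 fell, beside 22.8% of all genes. The median was -0.17, and it was -0.034 with the correction and -0.054 without WT chow replicates 1 and 2.

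Of the PKC relatives outside the 9, Prkcq, the theta isoform, averaged 1.90 ± 0.373 CPM in WT chow, 1.17 ± 0.397 in WT HFD, 2.19 ± 0.200 in meKO chow and 1.76 ± 0.418 in meKO HFD (SD, n = 3). Pkn3, a relative of Pkn2, averaged 1.23 ± 0.429, 1.33 ± 0.423, 1.66 ± 0.297 and 1.23 ± 0.379 CPM in the same order. Both were called in no comparison.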
